A study of Caenorhabditis elegans with 6 samples.

Results

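The proteasome subunit genes of Caenorhabditis elegans were described by the open chromatin peaks at their ends. Members were the protein-coding genes whose symbol starts with pas, pbs, rpn or rpt followed by a hyphen and a digit, which gave 33 of 19971 protein-coding genes on the nuclear chromosomes of the assembly WBcel235. Of these, 14 encode the core particle and 19 the regulatory particle. A member was counted as having a peak when the summit, the highest point of a peak, lay within 1000 bp of either end of the gene. The gene positions carried no strand, so a start and a stop of transcription were not told apart, and the ends are called lower and upper by coordinate.

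The proteasome is the barrel-shaped protease that degrades proteins tagged with ubiquitin in every cell. Its core particle stacks rings of alpha subunits (pas genes), which gate the entrance, and rings of beta subunits (pbs genes), some of which hold the proteolytic sites. The regulatory particle caps the barrel: its Rpt ATPases (rpt genes) unfold and push in the substrate, and its Rpn subunits (rpn genes) build the scaffold, bind ubiquitin and remove it. In C. elegans the transcription factor SKN-1A raises proteasome gene expression when proteasome function is impaired. The proteasome is needed in all tissues, neurons included, where it also acts in protein turnover at synapses.

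Nuclei came from mixed-stage, mostly larval populations of strain OH11061, grown at 20 °C on the bacterium OP50, and every sample carried the transgene otIs381, in which the ric-19 promoter puts GFP into neuronal nuclei. ATAC-seq, which marks open DNA by inserting adapters with the transposase Tn5, was done on 3 samples of neuronal nuclei (positive for GFP and for the DNA stain DAPI) and 3 samples of total nuclei (positive for DAPI), with 50000 nuclei each. Total nuclei were not depleted of neurons and hold neuronal nuclei too. The deposited files are 1 peak list per group on build ce11, with 2313 peaks for neuronal nuclei (called the neuronal list below) and 2683 for total nuclei (the total list). No value per sample and no read depth were at hand, so no spread between replicates stands behind any value, and the comparisons below set 2 lists beside each other without a test. In pooled nuclei, a site open in more nuclei and a site more open in each nucleus cannot be told apart. The absence of a peak does not show that the chromatin there was closed. As a check of the labels, the highest fold of both lists lay at ric-19 (51.5 and 51.9), where reads of the transgene and of the gene cannot be told apart. The pan-neuronal vesicle gene rab-3 had no peak by the same rule in either list, and the intestinal gene elt-2 had 1 in both, with a fold of 5.89 in the neuronal list and 5.59 in the total list. None of these 3 genes separated the lists.

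Peaks lay at a minority of proteasome genes, and at a larger share of them than of all genes. In the neuronal list, 9 of 33 members had a peak (27.3%, 95% exact binomial interval 13.3% to 45.5%), beside a background of 11.4% of all protein-coding genes. The total list had one at 12 of 33 (36.4%, 20.4% to 54.9%), beside 13.6% of all genes. Ribosomal protein genes, another set needed in every cell, had peaks at 50 of 78 genes (64.1%) in the neuronal list and 56 of 78 (71.8%) in the total list, so the proteasome share lay between that of all genes and that of ribosomal protein genes. The excess over all genes depended on how peaks were counted. When a peak was credited only to the gene with the nearest end, members stood at 9.09% against 7.43% of all genes in the neuronal list and at 15.2% against 8.71% in the total list. With the stronger 50% of peaks by the authors' p-value the excess was not seen. In the neuronal list members stood at 3.03% (1 of 33) against 5.06%, and in the total list at 6.06% (2 of 33) against 6.07%. Counts of 1 and 2 genes are too small to give a direction. The intervals cover counting error only, and genes are not replicates of a condition.

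Core and regulatory particle genes had peaks at shares whose intervals overlapped widely. For the core particle the count was 3 of 14 in the neuronal list (21.4%, 4.66% to 50.8%) and 5 of 14 in the total list (35.7%, 12.8% to 64.9%). For the regulatory particle it was 6 of 19 (31.6%, 12.6% to 56.6%) and 7 of 19 (36.8%, 16.3% to 61.6%). By subunit type, the alpha ring had 2 of 7 genes with a peak in both lists, pas-4 and pas-7. The beta ring had 1 of 7, pbs-2, in the neuronal list and 3 of 7, with pbs-3 and pbs-4 added, in the total list. Among Rpn genes the counts were 4 of 13 and 5 of 13, and among Rpt genes 2 of 6 in both lists, rpt-1 and rpt-6.

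**Figure D1:**
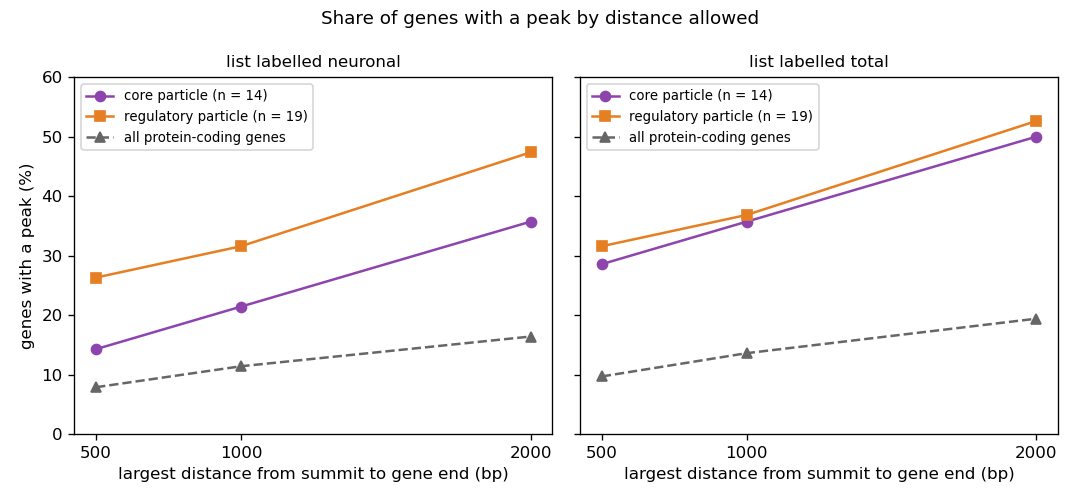
Share of genes with a peak (y axis, %) against the largest distance allowed between summit and gene end (x axis, bp), for core particle genes, regulatory particle genes and all protein-coding genes in each list. Both particles lie above all genes at each distance; at 1000 bp the regulatory particle stands at 31.6% and 36.8% and the core particle at 21.4% and 35.7%.

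In all, 13 members had a peak in either list, beside 14.1% of all genes, and 8 of those 13 had one in both (61.5%). Over all genes with a peak in either list, 2166 of 2812 had one in both (77.03%). The 8 were pas-4, pas-7, pbs-2, rpn-2, rpn-7, rpn-9, rpt-1 and rpt-6. Only rpn-3 had a peak in the neuronal list and none in the total list, a class that held 0.511% of all genes. The reverse class held pbs-3, pbs-4, rpn-5 and rpn-11 (12.1% of members, 3.40% to 28.2%), beside 2.72% of all genes. Members had a peak in either list more often than all genes (39.4% against 14.1%), which raises such shares. Among genes with a peak in either list, the reverse class held 4 of 13 members and 544 of 2812 genes. The total list is the longer one, and with equal numbers of peaks pbs-4, rpn-5 and rpn-11 had none in it.

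Where both lists had a peak, it was at the same place to within 21 bp. The summit was identical at 5 of 8 members (pas-7, pbs-2, rpn-7, rpn-9 and rpt-6) and moved by 2 bp at pas-4, 10 bp at rpn-2 and 21 bp at rpt-1. Among all 2199 peaks paired one to one between the lists, 52.5% had the same summit.

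The alpha subunit genes with a peak were pas-4 and pas-7. At pas-4 (CELE_C36B1.4, chromosome I from 8727218 to 8728487) the peak of the neuronal list ran from 8727731 to 8729229, with a width of 1499 bp and a fold enrichment of 8.34, and that of the total list was 1424 bp wide with a fold of 8.99. Fold enrichment here is the authors' value for each peak, the reads at the summit over the local background. The summit lay 142 bp above the gene, in a gap of 276 bp to rpb-3, which encodes an RNA polymerase II subunit, and was 135 bp from that gene. At pas-7 (CELE_ZK945.2, chromosome II from 10098782 to 10099854) the summit lay 176 bp above the gene in both lists. Its peak was 1481 bp wide with a fold of 10.4 in the neuronal list and 1136 bp wide with a fold of 11.1 in the total list. The neuronal peak covered 958 of the 1073 bp of pas-7, and the total peak 604 bp. The next gene, puf-12, was 280 bp from the summit.

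Of the beta subunit genes, pbs-2 (CELE_C47B2.4, chromosome I from 12967216 to 12968280), which encodes a catalytic subunit with trypsin-like activity, had a peak in both lists. Its summit lay 751 bp below the gene and 194 bp from tba-2, an alpha-tubulin gene, with a fold of 5.79 in each list and widths of 1437 bp and 1268 bp. At pbs-3 (CELE_Y38A8.2, chromosome II from 4954480 to 4955427) only the total list had a peak, of 1309 bp and fold 7.77. That summit lay 122 bp from pbs-3 and just inside the neighbouring SUMO protease gene ulp-2, 99 bp from its end. At pbs-4 (CELE_T20F5.2, chromosome I from 3908747 to 3909701) the total peak was 1622 bp wide with a fold of 7.17 and a summit 142 bp below the gene. It was the only member peak with no other protein-coding gene end within 1000 bp of its summit, and the gap below pbs-4 is 3538 bp. The genes of the other catalytic beta subunits, pbs-1 and pbs-5, had no peak by this rule.

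Among the ATPase genes, rpt-1 had the highest fold of all members. At rpt-1 (CELE_C52E4.4, chromosome V from 11980534 to 11982397) it was 12.7 in the neuronal list and 12.5 in the total list, with widths of 865 bp and 926 bp. The summit lay 478 bp and 457 bp below the gene, in the gap of 810 bp to snr-4, a gene for an Sm protein of the spliceosome. At rpt-6 (CELE_Y49E10.1, chromosome III from 12370456 to 12372608) the summit was the farthest from its member of all those counted, 880 bp below the gene. It was 526 bp from his-72, which encodes a histone H3.3. The peak was 2048 bp wide with a fold of 7.70 in the neuronal list and 2293 bp wide with a fold of 8.37 in the total list. It did not reach rpt-6 in either list and covered 1210 bp and 954 bp of the 1576 bp of his-72.

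The Rpn genes with a peak in both lists were rpn-2, rpn-7 and rpn-9. At rpn-2 (CELE_C23G10.4, chromosome III from 6199180 to 6202594), a large scaffold subunit of the base, the summit lay 377 bp below the gene in the neuronal list and 387 bp below it in the total list. The folds were 6.18 and 6.95 and the widths 1155 bp and 1041 bp. Its deposited score, a scaled measure of reproducibility with a maximum of 1000, was 465 and 888. Whether that score compares the samples of a group is not stated. The total peak at pbs-4 had a score of 608. At rpn-7 (CELE_F49C12.8, chromosome IV from 9316639 to 9318632), a lid subunit, the summit lay 429 bp below the gene and 5 bp inside the end of F49C12.9. The fold there was 8.52 with a width of 1184 bp and 9.48 with a width of 944 bp. At rpn-9 (CELE_T06D8.8, chromosome II from 11237447 to 11238919), also a lid subunit, the summit lay 177 bp above the gene, with folds of 7.22 and 7.51 and widths of 936 bp and 942 bp. The next gene, T06D8.9, was 622 bp from that summit.

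The peak at rpn-3, a lid subunit gene (CELE_C30C11.2, chromosome III from 8447353 to 8449346), was the widest of the 2313 peaks in the neuronal list. It ran from 8443612 to 8447614, a width of 4003 bp, and the next widest peak of that list had 3662 bp. It covered all 3000 bp of hsp-110, which encodes an Hsp110 chaperone, the gap of 443 bp between both genes, and 262 bp of rpn-3. The summit lay in the gap, 302 bp from rpn-3 and 142 bp from hsp-110. The fold was 5.25, in the lowest 1.38% of the list. No peak of the total list overlapped it, and the nearest summit of that list lay 22104 bp from rpn-3. Of the 95 neuronal peaks without an overlapping total peak, 3 were 2000 bp or wider, and the next widest of them had 2252 bp.

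Both rpn-5 and rpn-11 had peaks in the total list alone. At rpn-5 (CELE_F10G7.8, chromosome II from 4696421 to 4698294), a lid subunit gene, the summit lay 175 bp above the gene and 252 bp from the cohesin gene scc-1. The peak was 727 bp wide with a fold of 5.00 and a score of 514. At rpn-11 (CELE_K07D4.3, chromosome II from 4043062 to 4044330), which encodes the deubiquitinase of the lid, there were 2 peaks. The first was 1296 bp wide with a fold of 7.88 and a summit 220 bp above the gene, 221 bp from K07D4.2. The second was 161 bp wide with a fold of 1.48, lay wholly inside rpn-11, and still had a score of 1000. The nearest summit of the neuronal list lay 84174 bp from rpn-11.

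**Figure D2:**
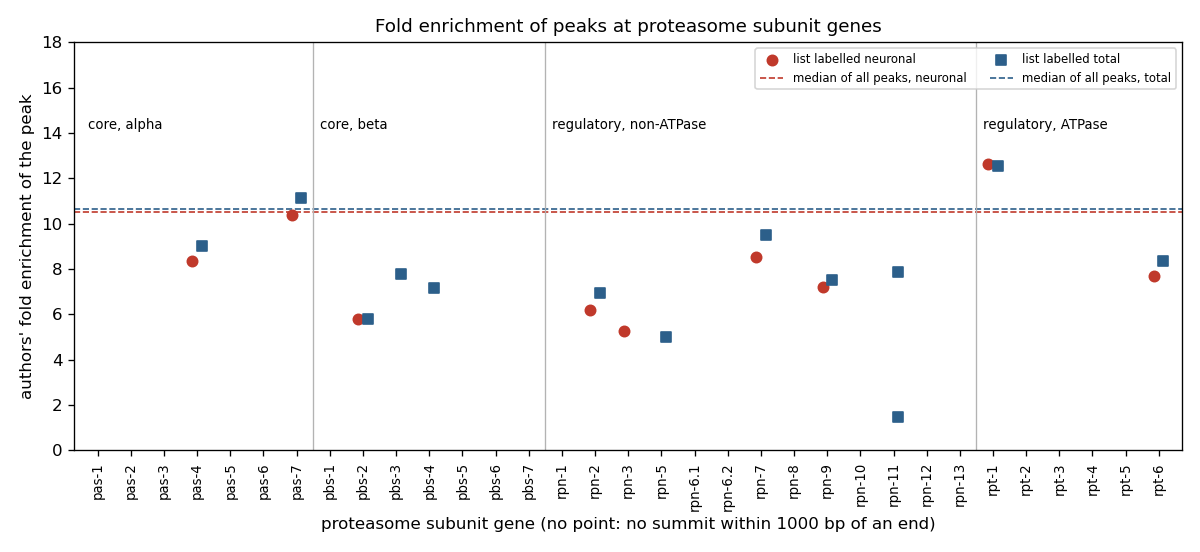
Authors' fold enrichment (y axis) of each peak at the 33 proteasome subunit genes (x axis, by subunit type); circles stand for the neuronal list, squares for the total list, and dashed lines for the median of each whole list. Points for rpt-1 in both lists and pas-7 in the total list lie above the lines, and all others below.

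Peaks at proteasome genes were wide and of low fold for their lists. In the neuronal list the 9 member peaks had a median fold of 7.70 (range 5.25 to 12.7), beside 10.4 for the 1502 peaks near any gene end, and 8 of 9 lay below the median of the whole list, 10.5. The background for that count was 52% of peaks near a gene end, with each peak counted once. Picking peaks through genes favours peaks near several genes. Counts of member peaks by fold or width thus cannot be set against such shares directly. Over the 13 member peaks of the total list the median fold was 7.77 (1.48 to 12.5), beside 10.5 for 1776 peaks, and 11 of 13 lay below the list's median of 10.7, beside a background of 51.9%. Widths went the other way. The median was 1437 bp in the neuronal list, where all 9 member peaks were wider than the list's median of 799 bp, beside 57.1% of peaks near a gene end. It was 1136 bp in the total list, where 11 of 13 were wider than the median of 823 bp, beside 59.4%. The exceptions there were rpn-5 and the short peak in rpn-11. Peaks at ribosomal protein genes lay below the fold median in 43 of 49 (87.8%) and 45 of 55 (81.8%). Low fold was thus not particular to proteasome genes. Ribosomal protein peaks were wider than the list's median in 67.3% and 74.5%.

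Both features together, a fold below and a width above the median of the list, were found in 8 of 9 member peaks of the neuronal list and 9 of 13 of the total list. The background was 30.3% and 31.8% of peaks near a gene end, again with each peak counted once, so it is no direct comparison. Peaks at ribosomal protein genes had both in 27 of 49 (55.1%) and 32 of 55 (58.2%), so the combination was not shown to be particular to proteasome genes. Across all peaks, fold and width were unrelated in rank (Spearman's rho -0.00096 over 2313 peaks and 0.036 over 2683, across peaks of 1 list each, which share their libraries).

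**Figure D3:**
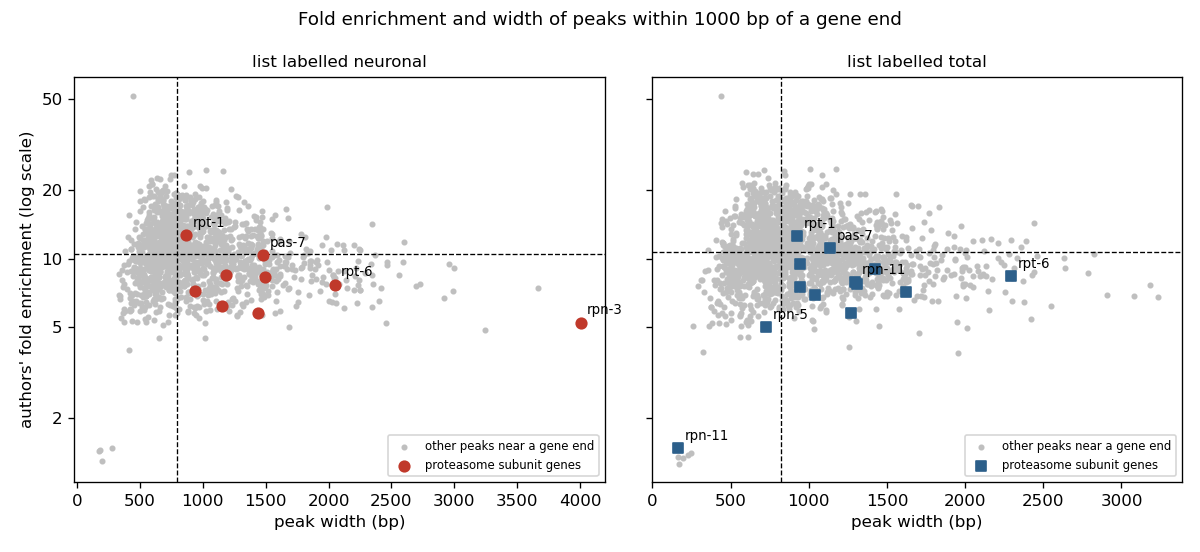
Authors' fold enrichment (y axis, log scale) against peak width (x axis, bp) for peaks with a summit within 1000 bp of a gene end, in each list; large symbols are peaks at proteasome subunit genes and dashed lines the medians of the whole list. Most large symbols lie at low fold and high width, 8 of 9 in the neuronal list and 9 of 13 in the total list, with rpn-3 at 4003 bp farthest right.

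A low fold can come with few reads at the summit or with a high local background, and both were recovered from the deposited fold and p-value. The summit pileup, the number of reads over the summit, was above the median of the list in 2 of 9 member peaks of the neuronal list (rpt-1 with 3859 reads and rpt-6 with 2146, median of the list 1920) and in 3 of 13 of the total list (rpt-1, rpt-6 and rpn-7, with 2424, 1557 and 1246, median 1204). The background for these counts was 46.1% and 45.9% of peaks near a gene end. Here too each peak was counted once, so these shares and those below are no direct comparison. The local background was above the median of the list in 7 of 9 and 8 of 13 member peaks, beside 47.7% and 46.8%. At ribosomal protein genes the local background was above it in 81.6% and 87.3% of peaks, and the pileup in 55.1% and 58.2%. At rpt-1 both were high, with a local background of 304.1 reads in the neuronal list against a list median of 183.8. At pas-4 and pas-7 both were low in the neuronal list, with 1381 and 1510 reads over backgrounds of 164.6 and 144.7. By the authors' p-value, which rises with both fold and depth, 1 member (rpt-1) had a peak in the stronger 50% of the neuronal list and 2 (rpt-1 and rpt-6) in that of the total list, beside 5.06% and 6.07% of all genes.

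Between the lists, the 8 shared member peaks held similar ranks. Ranked by fold among the same 2199 paired peaks of each list, 5 of 8 stood higher in the total list, beside 48.8% of all pairs. The median difference, total minus neuronal, was 0.978 percentile points for member peaks and -0.045 for all pairs. The largest differences were at rpt-1, which stood at percentile 69.9 in the neuronal list and 62.3 in the total list, and at rpn-7, which stood at 22.4 and 27.1. In width, 2 of 8 ranked higher in the total list, beside 42.2% of all pairs, with a median difference, total minus neuronal, of -4.16 percentile points against -0.64. The largest differences in width were at rpn-7, at percentile 81.1 in the neuronal list and 64.9 in the total list, and at pas-7, at 92.1 and 78.1. Without values per sample it was not tested whether these differences exceed the spread between samples.

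Most summits counted for a proteasome gene were shared with a neighbour. Each of the 9 neuronal member peaks had the ends of 2 or more protein-coding genes within 1000 bp of the summit. So did 12 of 13 total member peaks, and 45 of 49 (91.8%) and 51 of 55 (92.7%) peaks at ribosomal protein genes. The share was 49.9% and 52.5% over all peaks near a gene end, with each peak counted once. Picking peaks through genes favours peaks near several genes, so the member counts cannot be set against that share directly. In the neuronal list a neighbour was nearer than the member at 6 of 9 summits, and in the total list at 8 of 13. The nearer neighbours in the first were rpb-3, tba-2, hsp-110, F49C12.9, snr-4 and his-72, and in the second rpb-3, tba-2, ulp-2, F49C12.9, snr-4, his-72, C23G10.7 and, at the short peak in rpn-11, pqn-48. Which of the genes a peak acts on cannot be told from these files. When a peak was credited to the gene with the nearest end alone, 3 members kept one in the neuronal list (pas-7, rpn-2 and rpn-9), beside 7.43% of all genes. The total list left 5 (pas-7, pbs-4, rpn-5, rpn-9 and rpn-11), beside 8.71%. Among all genes with a peak, 1483 of 2268 kept one in the neuronal list and 1740 of 2710 in the total list. For members this was 3 of 9 and 5 of 12. At rpn-2 the summit was nearly midway between both genes, and its move by 10 bp between the lists changed the gene it was credited to.

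**Figure D4:**
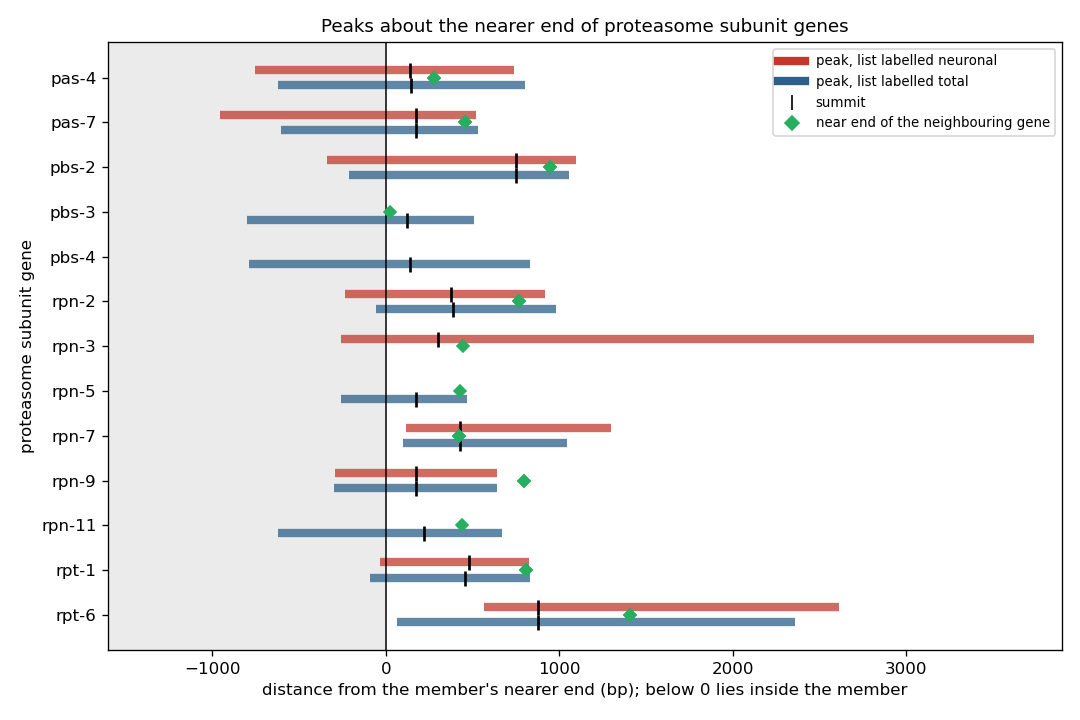
Peaks at 13 proteasome subunit genes (y axis) drawn by distance from the member's nearer end (x axis, bp; the shaded side lies inside the member), as bars for each list with summits as ticks and the near end of the neighbouring gene as diamonds, the short peak in rpn-11 left out. At most genes the summit lies in the gap between the member and its neighbour, and the neuronal peak at rpn-3 runs on past hsp-110 to a width of 4003 bp.

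The median distance from summit to member was 377 bp (142 to 880 bp) in the neuronal list and 220 bp (122 to 880 bp) in the total list, beside 324 bp and 311 bp over all genes with a peak. Core particle genes had medians of 176 bp and 144 bp, and regulatory particle genes 403 bp and 408 bp, over 3 to 8 peaks each. The summit in rpn-11 was the only one inside a member, 0 of 9 and 1 of 13, which is near the share over all pairs of a gene and its peak (11.3% and 10.9%). Peaks still reached into the member at 7 of 9 and 11 of 13, the exceptions being rpn-7 and rpt-6 in both lists.

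The remaining 20 members had no peak by this rule in either list. They were pas-1, pas-2, pas-3, pas-5 and pas-6 of the alpha ring, pbs-1, pbs-5, pbs-6 and pbs-7 of the beta ring, rpt-2 to rpt-5, and rpn-1, rpn-6.1, rpn-6.2, rpn-8, rpn-10, rpn-12 and rpn-13. Among the last group are the scaffold gene rpn-1, the lid gene rpn-6.1 and its paralogue rpn-6.2, and the ubiquitin receptor genes rpn-10 and rpn-13. Several lay just outside the limit. The nearest neuronal summit was 1135 bp from pas-5, 1151 bp from pbs-5, 1349 bp from rpn-8 and 1384 bp from rpn-10, while the farthest summits inside the limit were at 751 bp (pbs-2) and 880 bp (rpt-6). At rpt-4 both lists had a summit inside the gene, 1610 bp from its end, with folds of 8.97 and 9.66. With a limit of 2000 bp these 5 were added in both lists, which gave 14 of 33 and 17 of 33 members, beside 16.4% and 19.4% of all genes. A limit of 500 bp left 7 and 10 members, without pbs-2 and rpt-6, beside 7.88% and 9.69%. The other 15 had their nearest summits 2473 bp away or farther, up to 40731 bp at pas-1.

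**Figure D5:**
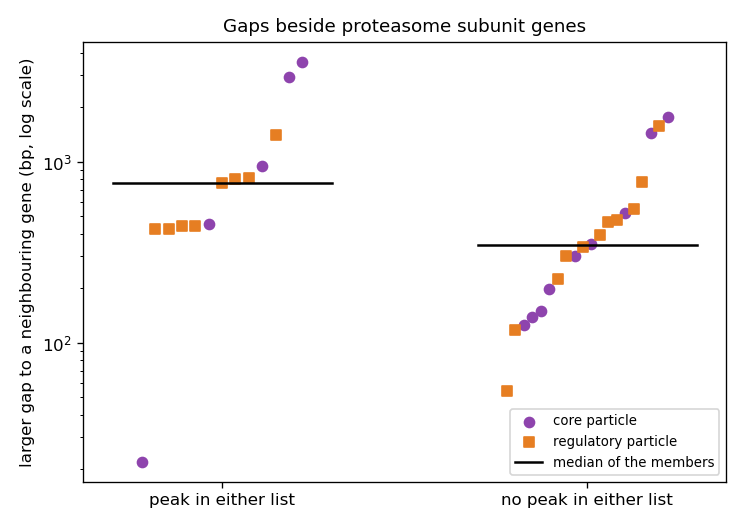
Larger of the gaps to the neighbouring protein-coding genes (y axis, bp, log scale) for the 13 members with a peak in either list and the 20 without; symbols mark the particle and lines the medians, 765 bp and 345 bp. The groups overlap, and pbs-3 with 22 bp is the lowest of those with a peak.

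The members also share features of position that the rule did not use. None of the 33 lies on the X chromosome, which holds 13.7% of protein-coding genes, while chromosomes I, II and III hold 10, 7 and 8. They are short, with a median length of 1473 bp against 2006 bp over all genes, and stand close to other genes. The larger of the gaps on both sides had a median of 443 bp for members, 630 bp for ribosomal protein genes and 1595 bp for all genes. It was 765 bp for members with a peak in either list and 345 bp for those without, whereas over all genes it was 1202 bp with a peak and 1691 bp without. The part of this close spacing in the shares above was not tested.

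Genes that work around the proteasome were taken from 4 lists, to be read beside the 10.8% of all protein-coding genes that had a peak in both lists. The list named for the SKN-1A pathway held 6 genes. Of these, sel-11, an ubiquitin ligase of the endoplasmic reticulum, and wdr-23, a repressor of SKN-1, had peaks in both lists. The folds at sel-11 were 8.77 and 9.22. At wdr-23 there were 2 peaks in each list, of folds 10.4 and 5.97 in the neuronal list and 11.5 and 6.01 in the total list. The summit of the stronger lay 899 bp outside wdr-23 in both lists. The genes skn-1, png-1, ddi-1 and sel-1 had none. Of 18 genes for ubiquitin and for delivery of substrates, 5 had a peak in both lists (27.8%). These were the polyubiquitin gene ubq-1 (folds 7.14 and 8.02), the ubiquitin fusion gene ubq-2 (9.49 and 11.01), the shuttle gene ubql-1 (8.51 and 8.57), the ligase gene ufd-2 (7.61 and 8.75) and aip-1, whose product binds the proteasome (8.03 and 8.45). Of 8 cullin and RING partner genes, cul-3 (18.8 and 19.1), cul-4 (12.5 and 13.1) and rbx-2 (10.4 and 12.2) had one in both lists (37.5%). The summit lay 768 bp outside cul-3 in both lists. For genes of the 4 lists, it is not given here whether a neighbour was nearer to the summit. Of 7 genes of the COP9 signalosome, whose subunits resemble those of the lid, none had one in either list, beside 14.1% of all genes. The 95% exact binomial interval for 0 of 7 reaches up to 41.0%.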

How the data were processed

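ATAC-seq peak lists of 3 samples each of neuronal and total nuclei were used, 1 list per group. The submitters' processing notes name MACS2, bedtools 2.26, SAMtools 1.7, Picard, Bowtie2 2.2.6, cutadapt 1.9.1 and the build ce11, with no role or parameter. Tn5 shifting, treatment of duplicates and the combining of samples are not stated there. Per the names of the lists, peaks passed an irreproducible discovery rate of 0.1. The names also hold the letters ppr, whose meaning is not given. The authors deposited for each peak a score (415 to 1000), a fold enrichment ratio, a −log10 p-value and a summit offset, which was added to the start.

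Members and gene lists were chosen with earlier results of these data known. Genes came from the RefSeq table of WBcel235, the sequence of ce11, which has no strand, so the planned 5′ end setting was not run, nor were the planned motif counts, for which no sequence was used here. Of 40 genes in the 4 further lists, 39 matched. Every member was named, with each neighbour nearer to its summit and each gene of the 4 lists with a peak. Ranks were taken within a list, and peaks were shared if they overlapped by at least 1 bp. Pileup and local background were solved from the fold and p-value with default MACS2 formulas, and pileups came out whole within 0.02 for 99.8% and 99.9% of peaks. Assignment and recovery were tested on simulated data. Python 3.11.15, numpy 2.4.6, scipy 1.17.1, pandas 2.3.3 and matplotlib 3.10.9 were used.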

Additional observations from a re-analysis of the deposited data

How the results depend on the processing

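No paired analysis was possible because the lists hold no value per sample, and for the same reason no replicate was left out. Of 62 results under alternatives, 47 stayed within 1.5 times the count reported, or within 1 SD of the member peaks for medians, and 15 moved. With a limit of 2000 bp the neuronal list had 14 members with a peak, 5 of them of the core particle, and with any base of the peak within 1000 bp the core count there was also 5. Crediting each peak to the nearest gene end gave 3 members in the neuronal list (core 1, regulatory 2) and 5 in the total list (core 2, regulatory 3). The stronger 50% of each list by p-value gave 1 member in the neuronal list (rpt-1) and 2 in the total list (rpt-1 and rpt-6), with 0 of 14 core members in either, beside 5.06% and 6.07% of all genes. With equal numbers of peaks both lists had 9 members, beside 11.4% and 11.6% of all genes, since pbs-4, rpn-5 and rpn-11 left the total list. Leaving out peaks of fold under 2, chosen after seeing the data, removed the short peak in rpn-11 and changed no count of members. The cause of these moves was not tested beyond what each setting removes or adds. Pooled lists without read depth set the limit on all values.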
